A study of Brassica napus with 6 samples.

Results

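In young floral buds of rapeseed (Brassica napus, cultivar Qinyou3), 58 assembled transcripts were close to absent after a spray with amidosulfuron and had higher counts in every bud library of water-sprayed plants. They were chosen by their read counts in the same 6 libraries. Levels are given as CPM, the count per 1000000 counts tabulated for the library. A transcript was kept if the upper quartile of its 6 counts was at least 10, its mean in amidosulfuron buds was under 1 CPM, its control mean was at least 4 times that value, and its lowest control value lay above its highest amidosulfuron value. None was at 0 in a control library, but 11 of the 58 held under 3 counts in 1 of them (4 in control 1 and 7 in control 3). A count of 0 would allow a level that low as well. The 58 make up 0.232% of the 24958 transcripts that passed the upper-quartile filter, out of 65535 tabulated. The authors matched 49 of them to 43 genes of Brassica rapa and left 9 unmatched. Because these counts made the choice, the difference between the groups is described here and not tested as a finding.

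The study has 2 groups with 3 biological replicates each. The amidosulfuron group was sprayed at bolting with 0.3 mg/L of the compound, and the control group was sprayed with water. The value columns of amidosulfuron 1 carry a letter D after the library's title, which the labels do not explain, and the table was taken as that library's because it is deposited under it. Buds of both groups were collected while pollen mother cells were in meiosis, before uninucleate microspores. All plants were of the same cultivar and were moved from the field to a greenhouse after vernalization. The labels do not say how many plants or buds went into a replicate.

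Amidosulfuron is a sulfonylurea herbicide. Sulfonylureas block acetolactate synthase, the enzyme that starts the synthesis of the branched-chain amino acids valine, leucine and isoleucine. The series title calls the compound a male gametocide, which is an agent that stops the formation of working pollen while the female organs stay fertile. In a young bud, the pollen mother cells are enclosed by the tapetum, a secretory layer of the anther that feeds the microspores and later supplies the pollen coat. A whole bud also holds sepals, petals and pistil, so in these libraries fewer cells of a type and less RNA per cell cannot be told apart. The tables name genes by identifier with no symbol, and none of the 20674 identifiers was found in the gene table at hand for Brassica napus. The labelled tissue could therefore not be checked against marker genes, the herbicide's target enzyme could not be looked up, and no role is given to any transcript below.

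The tabulated total per library ran from 1942711 to 2867528 reads in the amidosulfuron group and from 2218787 to 3596321 reads in the control group. One read was thus worth 0.349 to 0.515 CPM in amidosulfuron libraries and 0.278 to 0.451 CPM in control libraries. A count of 0 allows a level of up to 1.05 to 1.54 CPM in a single amidosulfuron library, and of 0.437 CPM over the 3 together (3 counts, counting error only). Amidosulfuron 2 and control 3 were more like each other than like the libraries of their own groups. Over the tested transcripts they correlated at 0.930 (Pearson, log2(CPM + 1), across transcripts), against 0.914 and 0.900 for amidosulfuron 2 with amidosulfuron 1 and 3, and 0.884 and 0.906 for control 3 with control 1 and 2. The remaining pairs within a group correlated at 0.948 (amidosulfuron 1 and 3) and 0.913 (control 1 and 2), and the other 8 pairs across groups at 0.855 to 0.904. With both left out, the same rule chose 194 transcripts, of which 45 were among the 58.

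In treated buds the 58 transcripts lay at the edge of detection. Their summed level was 13.3, 24.3 and 31.5 CPM in amidosulfuron 1, 2 and 3, against 403, 2133 and 1045 CPM in control 1, 2 and 3. The means were 23.0 ± 9.19 CPM in amidosulfuron buds and 1194 ± 874 CPM in control buds (SD, n = 3 each). Behind these sums stood 25.8, 69.6 and 65.0 counts in the amidosulfuron libraries and 1450, 4732 and 2523 counts in the control libraries. The 5 highest transcripts took 23.8%, 67.1% and 34.5% of the sum in control 1, 2 and 3. Without the single highest, the control sums were 348, 1369 and 1044 CPM, still lowest in control 1, and the means were 23.0 ± 9.19 CPM in amidosulfuron buds and 920 ± 522 CPM in control buds (SD, n = 3 each).

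The median transcript of the set stood at 0, 0.349 and 0.485 CPM in amidosulfuron 1, 2 and 3, and at 5.63, 10.1 and 5.30 CPM in control 1, 2 and 3. Over its 3 amidosulfuron libraries a transcript had a median of 2.3 counts in all (0 to 6.5), and over its 3 control libraries a median of 56.8 counts (31.0 to 1896). Most of the set was modestly expressed in control buds: 35 of the 58 had a control mean under 10 CPM, 12 reached 20 CPM and 5 reached 50 CPM. No count was seen for 39 of the 58 in amidosulfuron 1, for 24 in amidosulfuron 2 and for 19 in amidosulfuron 3. In all 3 treated libraries at once, 9 were at 0.

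**Figure D1:**
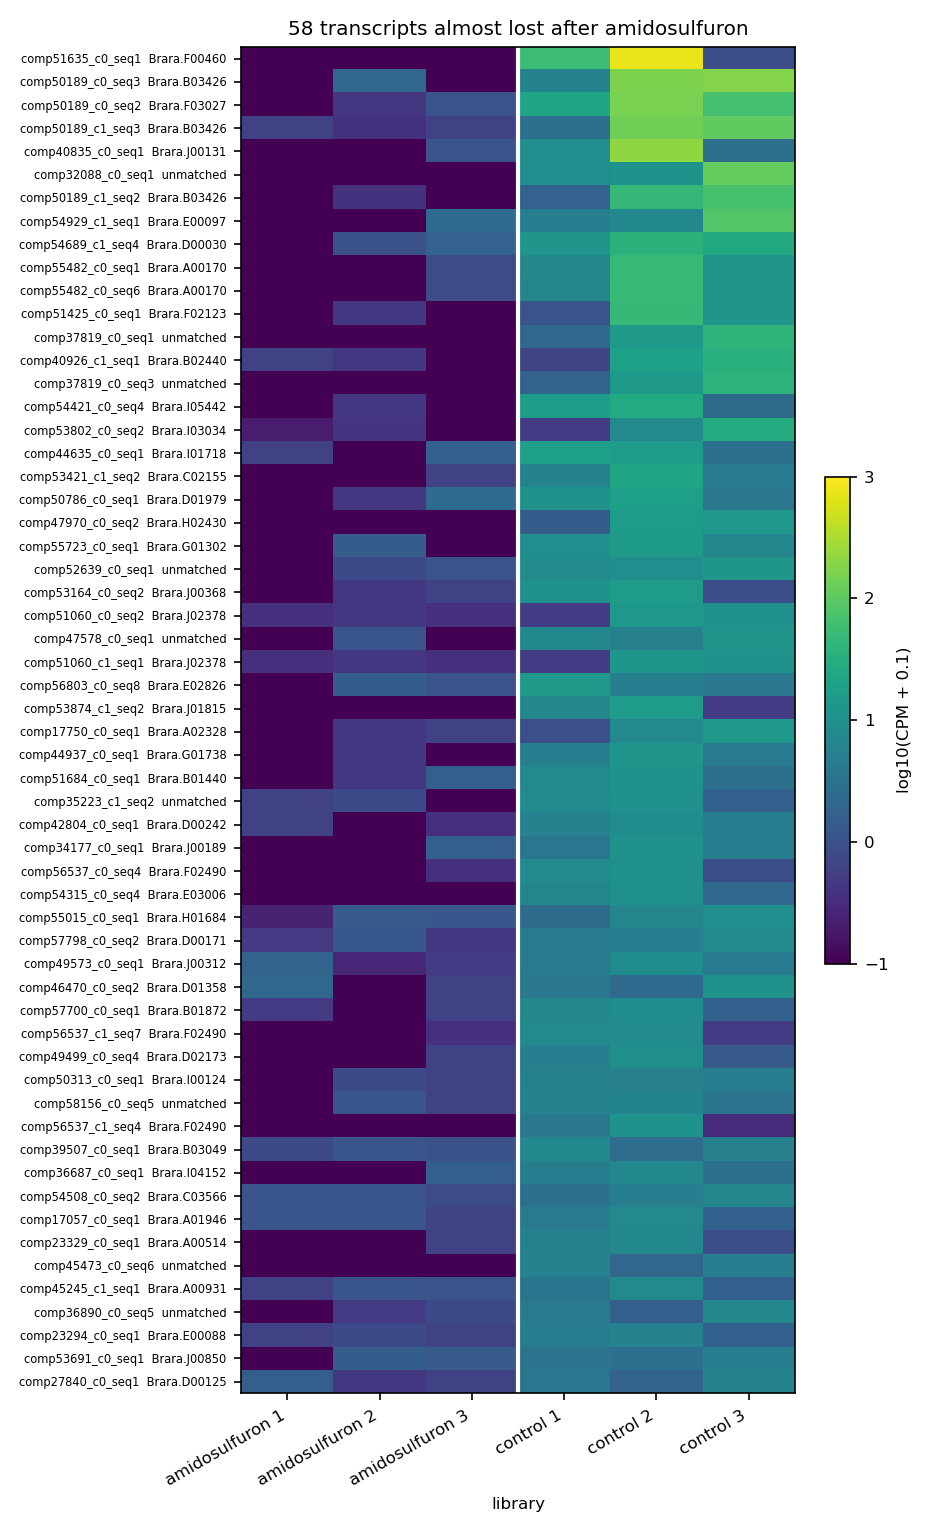
Level of each of the 58 transcripts in each library, as log10(CPM + 0.1), with the 3 amidosulfuron libraries left of the 3 control libraries. Rows run from the highest control mean (273 CPM) at the top to the lowest (3.81 CPM), each with its transcript and its Brassica rapa match; the darkest colour is a count of 0.

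In the plot of group means, 102 tested transcripts had an amidosulfuron mean under 1 CPM, and all 102 also had a control mean at least 4 times as high. A transcript this low in treated buds passes the upper-quartile filter mainly through its control counts, so the filter largely sets both numbers. With no such filter the rule chose 847 transcripts in place of 58. The remaining 44 of these were left out because the groups overlapped. In 36 of the 44 the lowest control value was that of control 3, and control 3 was at 0 in 20 of the 44. Exchanging the groups in the rule gave a set of similar size, 52 transcripts with a mean of at least 4.76 CPM in amidosulfuron buds and under 1 CPM in control buds.

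**Figure D2:**
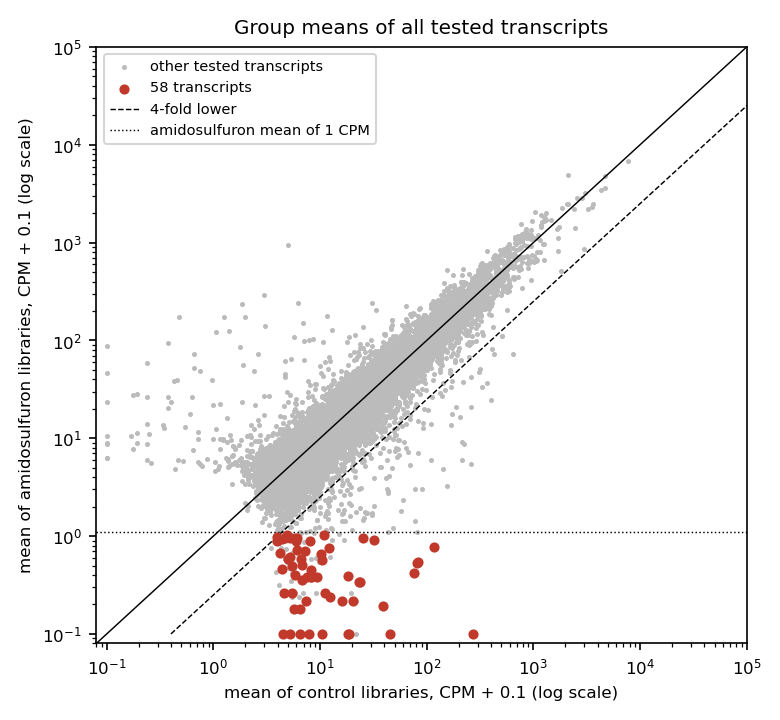
Mean CPM of the amidosulfuron libraries (vertical) against that of the control libraries (horizontal) for 24958 tested transcripts, with 0.1 CPM added and both axes on a log scale. The 58 transcripts (red) lie under the dotted line of 1 CPM, and other points there are those whose groups overlapped.

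The thresholds of the rule cut through a continuous range of values. The transcript nearest inside the ceiling of 1 CPM, comp54508_c0_seq2 (Brara.C03566), had 1.03, 1.05 and 0.728 CPM in the amidosulfuron libraries, against 2.92, 4.96 and 6.63 CPM in the control libraries. The nearest outside it was comp53654_c0_seq2 (Brara.H01670), with 0.515, 1.05 and 1.46 CPM in amidosulfuron buds, against 9.73, 26.6 and 93.2 CPM in control buds. Its mean of 1.01 CPM after amidosulfuron kept it out, although its control mean of 43.2 CPM was 42.9 times as high. Nearest inside the 4-fold limit was comp53691_c0_seq1 (Brara.J00850), with 0, 1.39 and 1.21 CPM in amidosulfuron buds, against 3.34, 2.82 and 5.28 CPM in control buds. No tested transcript that met the other conditions missed the 4-fold limit.

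The highest control level of the set belonged to comp51635_c0_seq1, a transcript of 1270 bp matched to Brara.F00460. It had no count in amidosulfuron 1, 2 or 3, against 55.3, 764 and 0.828 CPM in control 1, 2 and 3. Control 2 held 1695 of its 1896 control counts and control 3 held 2. Pooled over the libraries, it was at least 528-fold lower in amidosulfuron buds, from the 3 counts that a total of 0 allows for the group. The groups do not overlap, but the lowest control library lies less than 1 CPM above the treated ones. The 3 tested transcripts whose levels over the 6 libraries were most like it were comp56537_c1_seq4 (Pearson r of log2(CPM + 1) 1.00), comp49936_c1_seq6 (0.997) and comp53206_c0_seq1 (0.995). The first is one of the 58, while the other two kept at least 30.1 and 3.49 CPM in every amidosulfuron library, so the likeness is one of shape and not of level.

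A second single-transcript gene had the same emphasis on control 2. The transcript comp40835_c0_seq1 (Brara.J00131, 769 bp) had 0, 0 and 0.970 CPM in the amidosulfuron libraries, against 9.18, 215 and 2.90 CPM in the control libraries. Its 2 treated counts against 517 control counts gave a ratio of control to amidosulfuron of 216, with an exact 95% interval of 59.5 to 1787 that covers counting error only.

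The assembly component with the most members was comp50189, in which 4 of 5 tabulated transcripts belong to the set. Of these, 3 were matched to Brara.B03426 and 1 to Brara.F03027. The longest, comp50189_c0_seq2 (Brara.F03027, 721 bp), had 0, 0.349 and 0.970 CPM in amidosulfuron 1, 2 and 3, against 22.2, 159 and 66.5 CPM in control 1, 2 and 3. For Brara.B03426, comp50189_c0_seq3 (619 bp) had 0, 2.02 and 0 CPM in the amidosulfuron libraries, against 6.14, 160 and 183 CPM in the control libraries. Both reached their lowest control value in control 1, unlike the 2 genes before.

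The other two Brara.B03426 members were also lowest in control 1, and their highest library differed. The transcript comp50189_c1_seq3 (607 bp) had 0.515, 0.279 and 0.485 CPM in amidosulfuron buds, against 2.94, 134 and 107 CPM in control buds. The transcript comp50189_c1_seq2 (332 bp) had 0, 0.279 and 0 CPM in amidosulfuron buds, against 1.74, 46.3 and 69.6 CPM in control buds. The transcripts of this component hold fractions of counts in some libraries, so they may share reads and are not independent of each other. With the fourth Brara.B03426 transcript added, the gene amounted to 2.20 ± 2.08 CPM in amidosulfuron buds and 318 ± 260 CPM in control buds (SD, n = 3 each), so that 0.693% of the control mean was left.

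Of the 43 genes, 3 more were represented by several members. Brara.F02490 had 3 members, comp56537_c0_seq4, comp56537_c1_seq7 and comp56537_c1_seq4. Summed over its 6 tabulated transcripts it had 0, 0 and 0.485 CPM in the amidosulfuron libraries, against 25.0, 31.9 and 2.07 CPM in the control libraries. That is 1 treated count in all, with control 3 again close to the treated libraries.

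Brara.A00170 had 2 members, comp55482_c0_seq1 (1751 bp) and comp55482_c0_seq6 (1667 bp). The longer had 0, 0 and 0.728 CPM in amidosulfuron buds, against 7.04, 51.4 and 12.3 CPM in control buds, and the shorter had 0, 0 and 0.728 CPM in amidosulfuron buds, against 6.77, 49.6 and 12.3 CPM in control buds. These are 2 versions of one component with fractions of counts, so their reads may be shared and the values count as one. Brara.J02378 likewise had 2 members with nearly the same values, comp51060_c0_seq2 at 0.283 ± 0.0575 CPM in amidosulfuron buds and 8.10 ± 6.84 CPM in control buds, and comp51060_c1_seq1 at 0.283 ± 0.0575 CPM in amidosulfuron buds and 8.07 ± 6.67 CPM in control buds (SD, n = 3 each). In control 1, each stood at 0.417 CPM, barely above the treated libraries.

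Other matched transcripts with a high control level differed in which control library was high. The transcript comp54929_c1_seq1 (Brara.E00097, 1401 bp) had 0, 0 and 2.43 CPM in amidosulfuron buds, against 5.01, 7.21 and 84.5 CPM in control buds. The transcript comp51425_c0_seq1 (Brara.F02123, 1086 bp) had 0, 0.349 and 0 CPM in amidosulfuron buds, against 0.973, 47.1 and 12.2 CPM in control buds. So control 3 carried the first and control 2 the second.

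Control 1 was again the low library for comp40926_c1_seq1 (Brara.B02440, 605 bp), with 0.515, 0.349 and 0 CPM in amidosulfuron buds, against 0.556, 19.6 and 34.2 CPM in control buds. For comp54421_c0_seq4 (Brara.I05442, 958 bp) it was control 3, with 0, 0.349 and 0 CPM in amidosulfuron buds, against 17.6, 27.6 and 2.28 CPM in control buds. The margin between the groups was 0.0414 CPM for the first, well under the worth of 1 read. The transcript comp54689_c1_seq4 (Brara.D00030, 418 bp) was steadier, with 0, 0.872 and 1.70 CPM in amidosulfuron buds, against 12.3, 37.0 and 27.1 CPM in control buds.

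Among the 9 transcripts without a Brassica rapa match, the highest was comp32088_c0_seq1 (911 bp), with no count in any amidosulfuron library, against 8.90, 11.3 and 115 CPM in the control libraries. It was at least 93.0-fold lower in amidosulfuron buds by the same limit of 3 counts over the group. The next were 2 versions of one component, comp37819_c0_seq1 (510 bp) and comp37819_c0_seq3 (611 bp), which were also at 0 in every amidosulfuron library. In control 1, 2 and 3 the first had 2.09, 13.7 and 40.0 CPM and the second 1.81, 13.7 and 38.7 CPM. For all 3 unmatched transcripts the highest level was that of control 3. Unmatched transcripts made up 15.5% of the 58 and 11.4% of all tested transcripts, a description with no test.

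The 4 transcripts with the most even control levels had control means of 5.36 to 10.1 CPM, against a median of 7.55 CPM for the set. The most even was comp50313_c0_seq1 (Brara.I00124, 1188 bp), with 0, 0.697 and 0.485 CPM in amidosulfuron buds, against 5.70, 5.41 and 4.97 CPM in control buds. The unmatched comp52639_c0_seq1 (786 bp) had 0, 0.697 and 0.970 CPM in amidosulfuron buds, against 8.34, 9.01 and 12.8 CPM in control buds. Their treated and control values are separated by more than the spread within either group. The rule kept the groups apart and these were picked for even controls, so the separation is largely fixed by the choice. The treated levels rest on 3 and 4 counts in all.

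Next came comp42804_c0_seq1 (Brara.D00242, 994 bp), at 0.252 ± 0.258 CPM in amidosulfuron buds and 6.62 ± 1.83 CPM in control buds (SD, n = 3 each). The transcript comp57798_c0_seq2 (Brara.D00171, 673 bp) was at 0.617 ± 0.463 CPM in amidosulfuron buds and 5.95 ± 1.97 CPM in control buds (SD, n = 3 each). Counting error alone leaves these ratios wide, with 4.7 treated against 47.3 control counts giving a ratio of control to amidosulfuron of 8.41 for the last (exact 95% interval 3.14 to 25.3).

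Such evenness was unusual in the set. With values under 3 counts set to 3 counts of their library, the highest control library exceeded the lowest by a median of 5.49-fold (quartiles 3.00 and 12.8). Among the 22782 other tested transcripts with a control mean in the same range it did so by 1.64-fold (quartiles 1.36 and 2.15). That range, 3.81 to 273 CPM, takes in most tested transcripts, and levels were not matched within it. The 58 lay low in it (median 7.55 CPM), where counting error widens such a ratio. How much of the difference comes from level was not tested. A spread of 10-fold or more was seen in 19 of the 58, and of less than 3-fold in 15. The set with the groups exchanged varied by a median of 3.69-fold over its amidosulfuron libraries (quartiles 2.59 and 5.49). The rule asks only that the lowest control value exceed the highest treated one, and the upper quartile lets 1 library be low. In 47 of the 58 each control library held at least 3 counts.

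**Figure D3:**
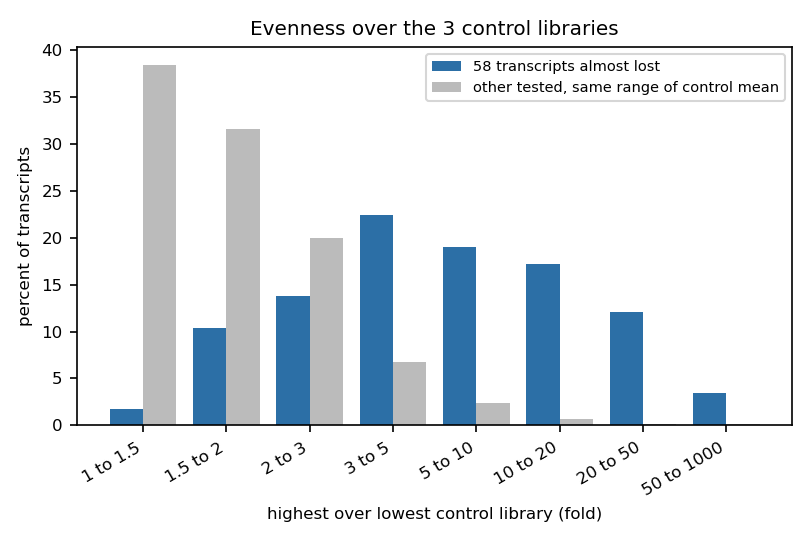
Share of transcripts (percent, vertical) by how many times the highest control library exceeded the lowest (horizontal, in bins), for the 58 transcripts (blue) and for 22782 other tested transcripts in the same range of control mean (grey). The largest share of the 58 lies between 3-fold and 5-fold (22.4%), and that of the other transcripts under 1.5-fold (38.4%). Levels were not matched within the range.

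The 3 control libraries did not share this spread equally. The highest control value was that of control 2 in 35 of the 58 (60.3%), of control 3 in 18 and of control 1 in 5. Among the other tested transcripts of the same range, control 2 was highest in 39.9%, control 3 in 29.9% and control 1 in 30.3%. The lowest control value was that of control 3 in 28 of the 58 (48.3%), of control 1 in 23 (39.7%) and of control 2 in 7 (12.1%). Among the other tested transcripts these shares were 35.1%, 41.6% and 23.3%, so control 1 was lowest about as often as elsewhere. The part that single control libraries have in these values was not tested.

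The 58 had a median length of 810 bp (quartiles 608 and 1175), against 899 bp (quartiles 567 and 1283) among all tested transcripts. Whole counts in all 6 libraries, which a transcript has when its reads need not be shared out, were found for 23 of the 58 (39.7%) and for 11.0% of the tested transcripts. Low counts are whole more easily, and this was not taken out. The 58 came from 50 assembly components, 5 of which contributed 13 transcripts.

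The other transcripts with the same match show whether these were low as well. Transcripts that share a Brassica rapa match need not come from 1 gene of rapeseed. A gene here means the match, and whether a whole rapeseed gene was lost was not tested. Between 30.1% and 34.1% of each library's mapped reads were tabulated, so these genes may have further transcripts that were not analysed here, and the sums below cover the tabulated ones. For 20 of the 43 genes no other transcript was tabulated. The other 23 genes had 38 further transcripts, and for each of the 23 their summed mean was lower in amidosulfuron buds than in control buds, though many were near 0 in both. The mean was lower in amidosulfuron buds for 54.9% of all tested transcripts. In 15 genes these further transcripts held at least 20 counts over the 6 libraries. Of the 15, 8 were at least 4-fold lower in amidosulfuron buds, 2 were between 2-fold and 4-fold lower and 5 were less than 2-fold lower. The groups did not overlap in 6 of the 15. Among all tested transcripts, 1.09% were at least 4-fold lower and 8.38% had every amidosulfuron value under every control value. Those shares are for single transcripts past the upper-quartile filter. The 15 are sums, and only 11 of the 38 further transcripts passed that filter, so the shares are not a like comparison. These transcripts may share reads with the 58 and are compared on the same libraries, so they are no independent measurement.

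With all tabulated transcripts of a gene added up, 37 of the 43 genes had a control mean at least 4 times the amidosulfuron mean. These were all 20 genes with no tabulated transcript outside the set, which the rule fixes, and 17 of the 23 with others. The sums of these 17 include the transcripts chosen by the rule. Their share of the gene's control mean ran from 15.6% (Brara.D00171) to 97.3% (Brara.H02430). The rule therefore partly fixes the 17 as well, and setting the 37 beside all tested genes is a description and no independent evidence. Among all 12039 genes with a tested transcript, 163 (1.35%) were at least 4-fold lower in this sense.

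Summed by assembly component, which can join transcripts matched to several genes, 43 of the 50 components were at least 4-fold lower and 7 were not. Many of the 50 hold only transcripts of the set, and for those the rule fixes the ratio. The share over all components was not computed, so the 43 are a description only. The member of Brara.C03566, a gene with a single tabulated transcript, shares the component comp54508 with a transcript matched to Brara.E02602, and that one had a mean of 189 CPM in amidosulfuron buds and 247 CPM in control buds. The member of Brara.H01684 shares comp55015 with 3 transcripts that together had a mean of 50.1 CPM in amidosulfuron buds and 77.1 CPM in control buds. The member of Brara.D00030 shares comp54689 with transcripts that together had a mean of 65.4 CPM in amidosulfuron buds and 111 CPM in control buds. The component comp53691, with the member of Brara.J00850, summed to a mean of 1.60 CPM in amidosulfuron buds and 6.10 CPM in control buds. All of these genes are among the 37. The component comp58156, with an unmatched member, summed to a mean of 60.5 CPM in amidosulfuron buds and 68.6 CPM in control buds.

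Brara.D00171, with 7 tabulated transcripts, was an example of a gene whose further transcripts were lower in sum as well. Its 6 further transcripts added up to 3.81, 2.23 and 6.21 CPM in amidosulfuron buds, against 25.7, 21.9 and 49.1 CPM in control buds. Brara.D00030 was less clear, because its 4 further transcripts reached 2.57, 26.0 and 3.93 CPM in amidosulfuron buds, against 14.0, 65.2 and 101 CPM in control buds, and the groups overlapped.

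In 6 genes the sum was less than 4-fold lower, and 4 of them kept more than 50% of the control mean. These genes were singled out after their values were seen. Brara.B03049 had one transcript in the set, comp39507_c0_seq1, but its second transcript carried most of the gene. That transcript, comp45236_c0_seq2, had 124, 191 and 137 CPM in amidosulfuron buds, against 210, 197 and 151 CPM in control buds, with overlap. The member contributed 2.67% of the gene's control level.

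Brara.I03034 was similar. Its member comp53802_c0_seq2 had 0.103, 0.314 and 0 CPM in amidosulfuron buds, against 0.389, 7.86 and 28.5 CPM in control buds. A second transcript of the same component, comp53802_c0_seq5, had 25.4, 21.2 and 33.0 CPM in amidosulfuron buds, against 12.7, 32.8 and 43.8 CPM in control buds. One transcript of the component was thus near 0 after the spray while the other overlapped between the groups.

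The other two genes that kept more than 50% were Brara.I00124, with 6.85 ± 4.74 CPM in amidosulfuron buds and 13.5 ± 5.23 CPM in control buds, and Brara.D00125, with 12.8 ± 2.48 CPM in amidosulfuron buds and 23.0 ± 2.70 CPM in control buds (all transcripts summed; SD, n = 3 each). Between 2-fold and 4-fold lower were Brara.D01358, with 6.03 ± 1.95 CPM in amidosulfuron buds and 14.4 ± 8.77 CPM in control buds, and Brara.A00931, with 4.21 ± 2.65 CPM in amidosulfuron buds and 11.8 ± 7.32 CPM in control buds (SD, n = 3 each).

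**Figure D4:**
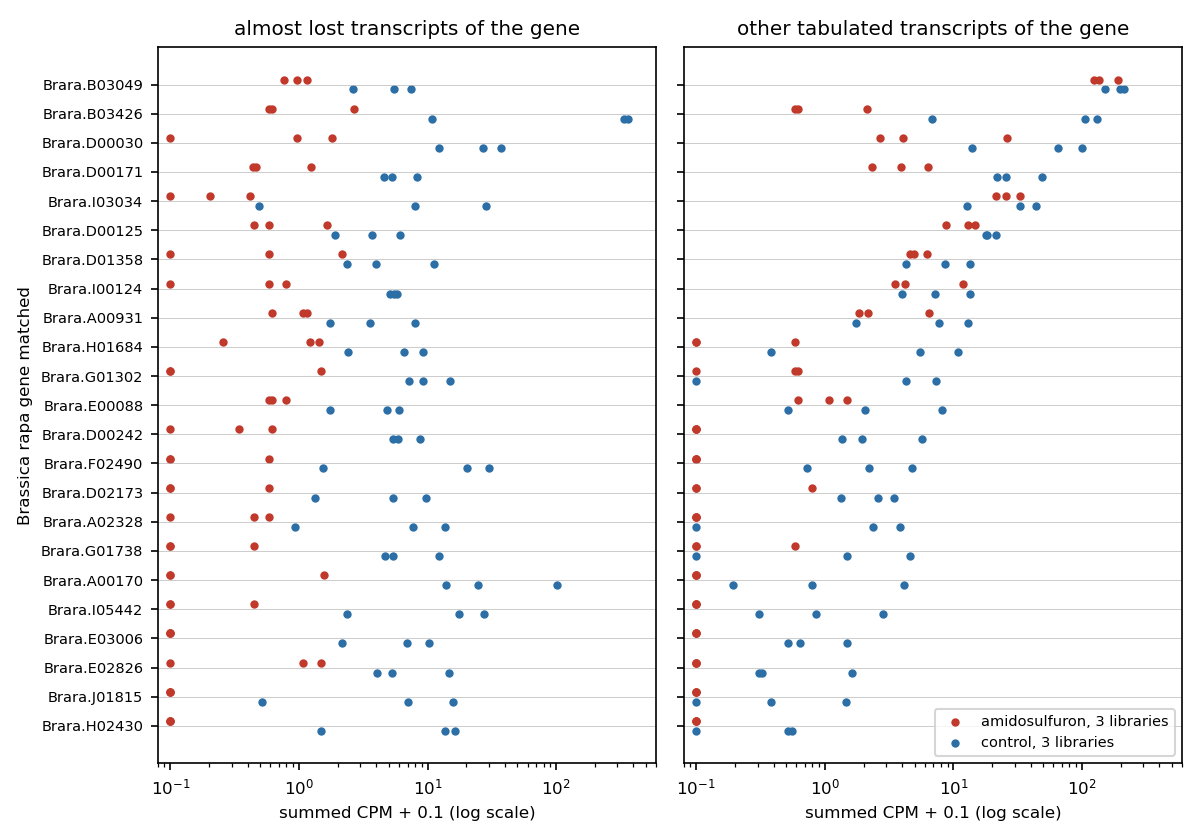
Summed CPM + 0.1 (log scale) per library in the 23 genes with further tabulated transcripts, for the almost lost transcripts (left panel) and for the further transcripts of the same gene (right panel); red points are the 3 amidosulfuron libraries and blue points the 3 control libraries, and points at 0.1 are counts of 0. The further transcripts of Brara.B03049 lie above 100 CPM in both groups, while those of Brara.B03426 lie at 0.485 to 2.02 CPM in amidosulfuron libraries and 6.70 to 130 CPM in control libraries.

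A fit across all 24958 tested transcripts places the set among the rest. The median fitted log2 fold (amidosulfuron over control, edgeR) was −4.74 for the 58 (quartiles −6.61 and −3.46) and −0.02 for all tested transcripts. By edgeR's quasi-likelihood test with Benjamini-Hochberg adjustment over all tested transcripts, 4 of the 58 were called lower at an adjusted p under 0.05, where 0.0321% of all tested transcripts were. They were comp50189_c0_seq2, comp52639_c0_seq1, comp54689_c1_seq4 and comp42804_c0_seq1, with adjusted p of 0.0288, 0.0359, 0.0384 and 0.0435 (edgeR). DESeq2 called 35 of the 58, against 0.465% of all, with no adjusted p for 3. At the thresholds of the design text, an unadjusted p of at most 0.05 and a log2 fold of at least 1 in size, all 58 were lower by edgeR, as were 3.00% of all tested transcripts. That every amidosulfuron value lies under every control value was a condition of the rule, and 8.38% of all tested transcripts met it. The rule used the same contrast, so these counts are not evidence for the set.

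Among the 54 transcripts that edgeR did not call was comp51635_c0_seq1. Its fitted log2 fold of −12.35 was the lowest of all tested transcripts, and its highest control library exceeded the lowest by 615-fold with the 2 counts of control 3 set to 3. In the 4 that were called, the highest control library exceeded the lowest by 1.54-fold to 7.17-fold, and each control library held at least 12.8 counts. Transcripts as even as these were also left uncalled. Examples are comp50313_c0_seq1 (1.15-fold, at least 12 counts, adjusted p 0.0789, edgeR) and comp57798_c0_seq2 (1.84-fold, adjusted p 0.0874, edgeR). What decided the calls was not tested.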

How the data were processed

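Single-end libraries were made from total RNA of whole young buds with a kit for digital gene expression tags, per the labels' protocols, which also mention normalized cDNA without saying how it was made. Reads of 36 nt were aligned with Bowtie2 2.1.0, allowing 1 mismatch, to an earlier Trinity assembly, and Brassica rapa FPsc 1.3 supplied the gene matches, per the series' design text. The deposited estimated counts are not normalized; the division of reads with several hits is not stated in the labels or design text. The deposited RPKM values are relative to transcript length and to the reads mapped, and served here to recover lengths (100% whole within 0.05 bp in control libraries) and the mapped reads behind them. Each table holds 65535 transcripts and 30.1% to 34.1% of those mapped reads, so only part of each library was analysed here.

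The members and lists were chosen with earlier results of these data known. CPM are counts per 1000000 tabulated counts. For the fit, estimated counts were rounded and transcripts with an upper quartile under 10 were left out. The program edgeR 4.0.16 (R 4.3.3) was used with TMM factors and group as the only term, and was tested on simulated data. The simulated folds were placed only in transcripts with higher counts than most of the set, and strongly uneven controls were not imitated. That test therefore does not cover much of the set. DESeq2 1.42.0, limma-voom (limma 3.58.1), other scalings and filters, a replicate block and libraries left out were alternatives. A fold against 0 uses 3 counts over the group; intervals are exact (Clopper-Pearson, 95%, counts rounded, scipy 1.17.1). The p-values weigh the difference between the groups against the spread between the 3 replicates of each group. That spread is estimated with the help of the other tested transcripts. Named transcripts are the 10 matched ones with the highest control mean (1 per gene), genes with 2 or more members, the 3 highest unmatched, those nearest the thresholds, and the 4 most even over controls; any other is said to be singled out afterwards or serves as a comparison. No sequence of these transcripts was at hand. Figures were drawn with matplotlib 3.10.9.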

Additional observations from a re-analysis of the deposited data

How the results depend on the processing

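The number of transcripts chosen by the rule (58) was 57 with TMM-scaled sizes, 44 with the transcripts of a gene summed (32 of them genes of the set) and 45 with those of a component summed (38 of them components of the set). It was 110 with the mapped reads behind RPKM as sizes, which makes 1 CPM a higher bar in reads, 847 with no upper-quartile filter, 23 with an upper quartile of at least 20 counts, 38 with a ceiling of 0.5 CPM and 91 with 2 CPM. Leaving out one library gave 39 to 124: 39 (30 of the 58) without control 1, 45 (25 of the 58) without control 2, 110 (41 of the 58) without control 3, 83 (50 of the 58) without amidosulfuron 1, 117 (53 of the 58) without amidosulfuron 2 and 124 (54 of the 58) without amidosulfuron 3. These alternatives were chosen after the data were examined: the rule chose 194 when neither control 3 nor amidosulfuron 2 was used, and asking for 3 counts in every control gave 47. Genes at least 4-fold lower when summed (37 of 43) numbered 35 to 39 in all alternatives run. The same 43 genes were used throughout and their sums include the members, so the rule partly fixes this number. Of the 58, edgeR called 4 lower, against 35 with DESeq2, 0 with limma-voom (24 at an unadjusted p under 0.05), 52 with no filter on low counts, 6 with filterByExpr (which kept 16 of the 58) and 11 without control 3 and amidosulfuron 2. Without one library edgeR called 0 to 8. It called 0 without control 2, amidosulfuron 1 or amidosulfuron 3 (0, 1 and 1 among all tested transcripts). There, 56, 58 and 58 of the 58 had an unadjusted p under 0.05 by edgeR. Among all tested transcripts 2406, 1422 and 1815 had one, in either direction. It called 2 without control 3 (8 among all) and 8 without control 1 (12 among all). With the replicate block 23 were called (44 among all). The rule used the same contrast, so none of these counts is evidence for the set. Libraries of equal number correlated at 0.14, −0.11 and −0.40 in their deviations from the mean of their group, so the numbers are not taken to pair them. The median fitted log2 fold stayed between −5.46 and −3.80 in all fits, and no named transcript changed sign in any, which the rule makes unlikely. The cause of the lost and gained calls was not tested. Treated levels rest on 0 to 6.5 counts per transcript, and a count of 0 in all 3 libraries still allows a level of about 0.437 CPM in the group.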

Other observations

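The identifiers of the matched genes consist of a letter and a running number, whose meaning the tables do not give. Of the 43 genes, 13 (30.2%) had a number of at most 500, as had 1657 (13.8%) of the 12039 genes with a tested transcript. The letters D and J held 7 of the 43 genes each (16.3%), against 6.78% and 7.53% of the genes with a tested transcript. This was noticed after the identifiers were seen and was not tested.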
